A study of Mus with 10 samples.

Results

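The nuclear genes for the subunits of the respiratory chain and of the ATP synthase were compared between liver type 1 innate lymphoid cells (ILC1s) with and without NKp46. Members were found by name, as genes called *Nduf* with a series letter and number, *Sdha* to *Sdhd*, *Uqcr*, *Cox4* to *Cox8*, *Cyc1* or *Atp5*, with a summed count of at least 100 over the 10 libraries. The name rule matched 84 of the 24564 genes in the deposited table, and 73 reached the count. Of these, 34 belong to complex I, 4 to complex II, 9 to complex III, 12 to complex IV and 14 to the ATP synthase. *Ndufa4* was placed in complex IV, where its protein is known to sit despite its name. Members that are not fixed subunits are *Cox7a2l*, a factor that joins respiratory complexes into supercomplexes, and *Atp5s*, a factor named after the ATP synthase.

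ILC1s are tissue-resident lymphocytes related to natural killer cells, and NKp46 is an activating receptor encoded by *Ncr1*. The 5 *Ncr1*+/+ and 5 *Ncr1*gfp/gfp libraries were from ILC1s sorted from the liver of C57BL/6 mice. The reporting summary gives C57BL/6J for the *Ncr1*+/+ mice and as the background of the *Ncr1*gfp/gfp mice. The methods text says C57BL/6 for both and names no substrain. Mice were male or female and aged 6 to 8 weeks by the methods text and 6 to 12 weeks by the reporting summary. In *Ncr1*gfp/gfp mice *gfp* stands in place of *Ncr1*, so *Ncr1*gfp/gfp ILC1s were gated by GFP and *Ncr1*+/+ ILC1s by an antibody to NKp46, and the cells also expressed NK1.1 and CD49a and lacked CD49b. No source states that each library came from 1 mouse, so the p-values measure the spread between these libraries only.

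The respiratory chain passes electrons from NADH through complex I, and from succinate through complex II, to coenzyme Q, and from there through complex III and cytochrome c to oxygen at complex IV. Complexes I, III and IV pump protons across the inner mitochondrial membrane, and the ATP synthase lets them back in to make ATP. Complex II is encoded by nuclear genes alone, while the other complexes also hold subunits from mitochondrial DNA. The 13 mitochondrially encoded subunit genes were not found by name in the deposited table and are not analysed here.

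Depth was 15796253 to 22623133 counts per library, at which 3 counts equal 0.132 to 0.190 CPM (counts scaled to library size with TMM factors). *Ncr1* was at 141 to 356 CPM across *Ncr1*gfp/gfp libraries and 1913 to 2144 CPM across *Ncr1*+/+ libraries, so the labels held, with reads left in each *Ncr1*gfp/gfp library. The 6 ILC1 markers in the table, *Itga1* (CD49a) among them, were present. *Itga1* had 928 to 1012 CPM across *Ncr1*gfp/gfp libraries and 732 to 805 CPM across *Ncr1*+/+ libraries. It alone had an adjusted p under 0.05 in edgeR's test. The other fold changes, *Ncr1*gfp/gfp over *Ncr1*+/+, were 1.07 for *Tnfsf10*, 1.02 for *Klrb1c*, 0.918 for *Cd200r1*, 0.915 for *Tbx21* and 0.878 for *Cxcr6*. The 4 NK cell markers summed to 53.95 to 89.2 CPM across *Ncr1*gfp/gfp libraries and 46.5 to 60.9 CPM across *Ncr1*+/+ libraries. Their fold changes were 1.44 for *Eomes*, 1.21 for *Itga2*, 1.202 for *Klra8* and 0.812 for *S1pr5*, none with an adjusted p under 0.05. Libraries *Ncr1*gfp/gfp replicate 3 and *Ncr1*+/+ replicate 1 stood out for hepatocyte genes, with 38.0 and 28.0 CPM of *Alb* against 0.971 to 4.69 CPM in the others. Of the 8 hepatocyte genes, *Trf* was at 120 to 146 CPM in each library, and the other 7 together were at 58.4 and 32.0 CPM in these 2 libraries and at 1.68 to 5.65 CPM in the other 8. Summed with *Trf*, the list was at 123 to 203 CPM across *Ncr1*gfp/gfp libraries and 135 to 178 CPM across *Ncr1*+/+ libraries. Erythroid *Hbb-bs* and *Hba-a1* had no counts, but both overlap other globin genes in the table, and the part of this was not tested. *Alas2*, the other erythroid gene listed, had 0 to 2.22 CPM across *Ncr1*gfp/gfp libraries and 0.400 to 9.14 CPM across *Ncr1*+/+ libraries. The summed level of the 5 T cell markers in the table, of 6 listed, was 632 to 835 CPM across *Ncr1*gfp/gfp libraries and 460.4 to 579 CPM across *Ncr1*+/+ libraries, without overlap. Most of this sum was *Cd3g*, at 595 to 793 CPM across *Ncr1*gfp/gfp libraries and 442 to 554 CPM across *Ncr1*+/+ libraries. Means of *Cd3d*, *Cd3e*, *Cd8a* and *Cd4* were 13.6, 21.1, 19.4 and 2.31 CPM in *Ncr1*gfp/gfp and 6.62, 5.72, 6.69 and 1.95 CPM in *Ncr1*+/+ ILC1s. *Cd3e*, *Cd3g* and *Cd8a* were each higher in *Ncr1*gfp/gfp ILC1s (adjusted p under 0.05 in edgeR's test), while *Cd3d* and *Cd4* did not pass (adjusted p = 0.0527 and 0.923). The 5 Kupffer and myeloid markers summed to 4.89 to 36.7 CPM across *Ncr1*gfp/gfp libraries and 8.80 to 51.6 CPM across *Ncr1*+/+ libraries. The 4 endothelial markers, mostly *Pecam1*, summed to 127 to 151 and 113 to 147 CPM in the same order. For the 4 B cell markers the sums were 2.49 to 4.98 and 0.561 to 5.88 CPM. None of the tested ones had an adjusted p under 0.05. The part of these other-cell markers in the subunit values was not tested. In RNA from pools of sorted cells, a smaller share of cells that use a gene and less RNA per cell cannot be told apart.

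None of the 73 subunit genes passed the test between genotypes. A gene was called where its adjusted p was under 0.05 and its level in *Ncr1*gfp/gfp ILC1s was over 1.5 or under 0.7 times that in *Ncr1*+/+ ILC1s (edgeR's quasi-likelihood test, Benjamini-Hochberg adjustment over all tested genes). Among all 11463 tested genes 84 were called, or 0.733%, against 0 subunit genes. An adjusted p under 0.05 without a fold limit was reached by 155 of all tested genes, or 1.35%, and by 0 subunit genes. At an unadjusted p under 0.05 there were 1303 of all tested genes, or 11.4%, and 3 subunit genes, or 4.11%, namely *Ndufa3*, *Uqcrfs1* and *Ndufb11*. DESeq2 gave 4 subunit genes, or 5.48%, at an unadjusted p under 0.05, against 12.3% of all tested genes, and limma-voom gave 7, or 9.59%, against 13.0%. At an adjusted p under 0.05 both gave 0 subunit genes, against 2.72% of all tested genes in DESeq2 and 1.46% in limma-voom. The CPM of 356 of all tested genes, or 3.11%, did not overlap between the genotypes, whereas each of the 73 subunit genes overlapped.

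The fold changes ran from 0.755-fold for *Ndufa3* to 1.18-fold for *Ndufb11*, and only *Ndufa3* and *Ndufb2* differed between the genotypes by more than 1.2-fold. Of the 73 genes, 44 were lower and 29 higher in *Ncr1*gfp/gfp ILC1s, with a median log2 fold change of -0.024, against 0.0027 over all tested genes. Without 1 library, 37 to 47 genes were lower and the median ran from -0.046 without *Ncr1*gfp/gfp replicate 2 to -0.0030 without *Ncr1*gfp/gfp replicate 4. With 37 lower and 36 higher genes, the split was even without *Ncr1*gfp/gfp replicate 5. For 67 of the 73 genes, or 91.8%, the 95% confidence interval of the fold change lay wholly between 0.7 and 1.5, as it did for 68.5% of all tested genes. A change past the call limits in either direction therefore lay outside the interval for these 67. The interval reached past a limit for *Ndufa3*, *Ndufb2*, *Ndufb4*, *Cox7c*, *Atp5k* and *Atp5g1*.

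**Figure D1:**
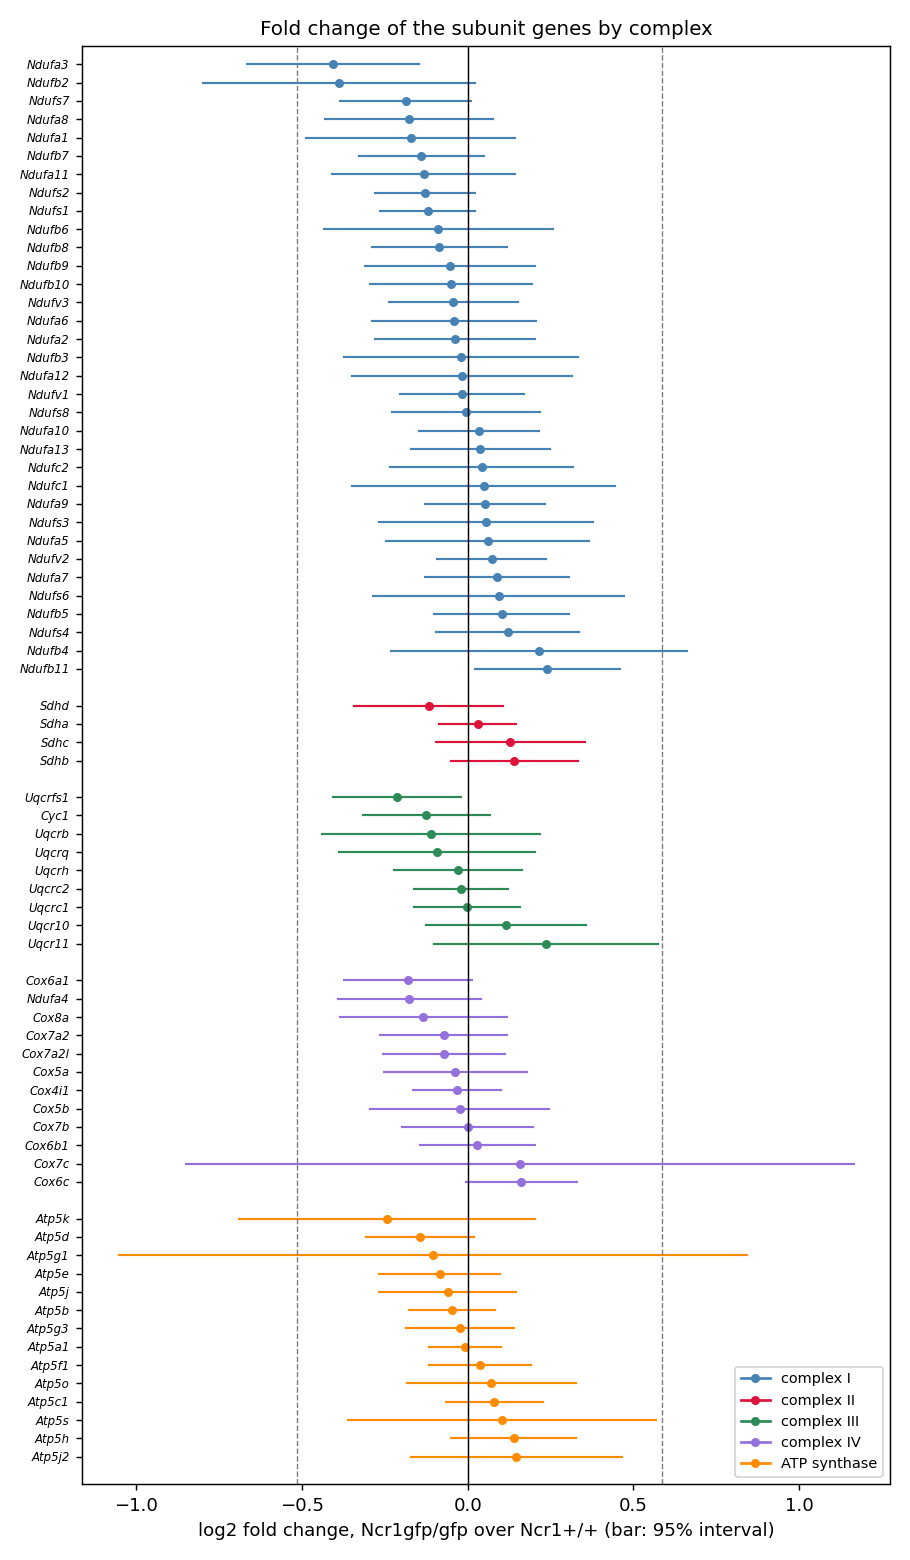
Log2 fold change of each of the 73 subunit genes, *Ncr1*gfp/gfp over *Ncr1*+/+, with its 95% confidence interval, grouped by complex and ordered by value; dashed lines mark 0.7-fold and 1.5-fold. All points lie between the dashed lines, and the intervals of *Ndufa3*, *Uqcrfs1* and *Ndufb11* alone do not cross 0.

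The summed CPM of the subunit genes was 3701 ± 179 over the 5 *Ncr1*gfp/gfp libraries and 3765 ± 78.1 over the 5 *Ncr1*+/+ libraries (mean ± SD). As a share of all deposited counts of a library this was 0.353% to 0.395% across *Ncr1*gfp/gfp libraries and 0.366% to 0.387% across *Ncr1*+/+ libraries. Libraries differed among themselves as much as the genotypes did. *Ncr1*gfp/gfp replicate 2 had the highest mean log2 CPM over the 73 genes, 5.12, and *Ncr1*gfp/gfp replicates 4 and 5 the lowest, 4.92 each, while the *Ncr1*+/+ libraries lay between 4.95 and 5.07. For 32 of the 73 genes *Ncr1*gfp/gfp replicate 2 was the highest *Ncr1*gfp/gfp library, and it was the lowest for 6. With 21975879 counts it was also the deepest *Ncr1*gfp/gfp library, and its sum of Kupffer and myeloid markers, 4.89 CPM, was the lowest of the 10 libraries. The part of depth or of other cells was not tested.

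By complex, the mean log2 CPM overlapped between the genotypes in all 5. For complex I it was 4.68 ± 0.074 with *Ncr1*gfp/gfp and 4.71 ± 0.033 with *Ncr1*+/+, for complex II 6.19 ± 0.023 and 6.14 ± 0.056, for complex III 5.11 ± 0.11 and 5.14 ± 0.058, for complex IV 5.10 ± 0.12 and 5.13 ± 0.087, and for the ATP synthase 5.23 ± 0.090 and 5.24 ± 0.068 (SD, n = 5 each). Each difference was less than the SD of the *Ncr1*gfp/gfp libraries except for complex II, where it was 0.044 and under the SD of the *Ncr1*+/+ libraries. Since no score over a list was tested, these are descriptions.

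**Figure D2:**
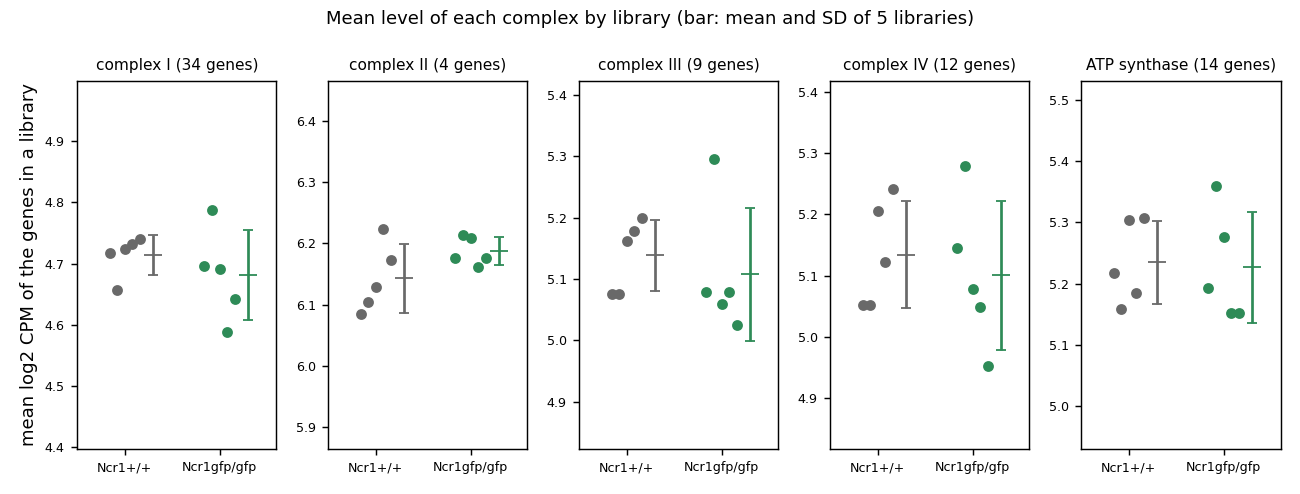
Mean log2 CPM over the genes of each complex in each library (points), by genotype, with the mean and SD of 5 libraries (bars); the 5 axes span the same range of log2 CPM but are centred on their own complex. The genotypes overlap in each panel, and *Ncr1*gfp/gfp replicate 2 is the highest *Ncr1*gfp/gfp library in all 5.

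Levels between genes were compared as CPM per kilobase of exon, averaged over the 10 libraries. They ran from 2.01 for *Atp5g1* to 212 for *Atp5b*, with a median of 39.8. The most abundant subunits per kilobase were the catalytic pair of the ATP synthase, *Atp5b* at 212 and *Atp5a1* at 169, and *Cox4i1* of complex IV at 168. The median per kilobase was 28.7 for complex I, 49.9 for complex II, 41.8 for complex III, 67.7 for complex IV and 44.1 for the ATP synthase. Subunits of 1 complex are built in at fixed ratios. Their levels per kilobase differed from lowest to highest by 13.7 times in complex I, 2.22 times in complex II, 6.49 times in complex III, 49.3 times in complex IV and 105 times in the ATP synthase. The lowest levels in the last 2 were those of *Cox7c*, *Atp5g1* and *Atp5s*, each under 4 CPM per kilobase. Without *Cox7c* the range in complex IV was 5.05 times, and without *Atp5g1* and *Atp5s* that in the ATP synthase was 9.85 times. The divisor was the total exon length listed for a gene, and the length of the transcripts present was not tested. *Ndufa11* and *Uqcrq*, the lowest per kilobase in complexes I and III, have 2661 and 1525 listed bases of exon.

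**Figure D3:**
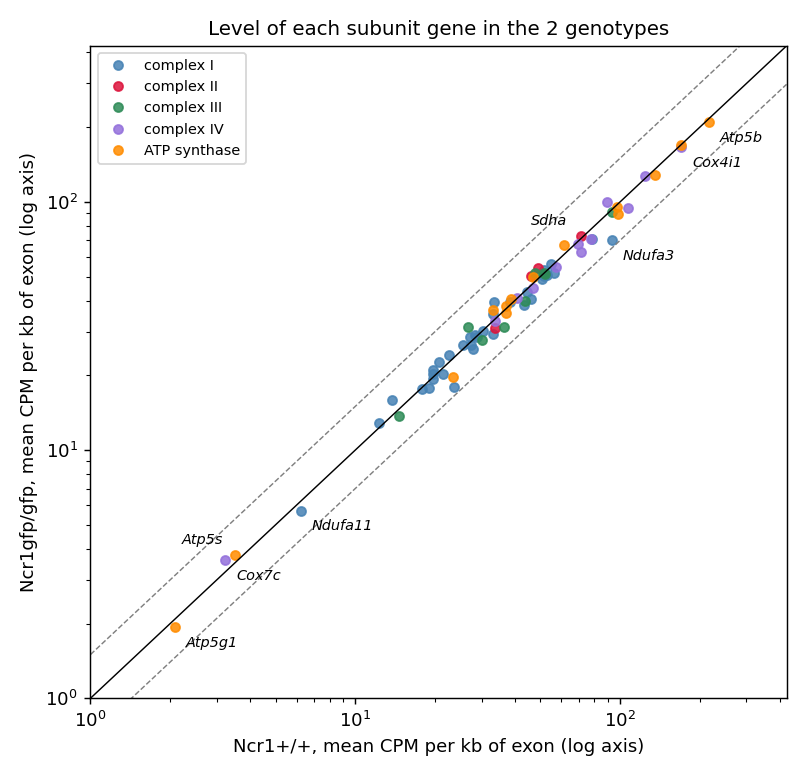
Mean CPM per kilobase of exon of each of the 73 subunit genes in *Ncr1*+/+ (x axis) and *Ncr1*gfp/gfp ILC1s (y axis), both on log axes, coloured by complex; the solid line marks equal levels and the dashed lines 1.5-fold and 0.7-fold. All genes lie between the dashed lines over a range from 2.01 (*Atp5g1*) to 212 (*Atp5b*).

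In complex I, which takes electrons from NADH, none of the 34 genes passed the test, 14 were higher and 20 lower, with a median log2 fold change of -0.019. The 7 core subunits of its matrix arm, which carry the flavin and iron-sulfur clusters, had fold-change intervals within 0.7 to 1.5 without exception. *Ndufv1*, which binds NADH and the flavin, had 46.9, 44.1, 50.7, 41.8 and 46.1 CPM in *Ncr1*gfp/gfp replicates 1 to 5 and 48.1, 42.4, 41.1, 51.9 and 48.98 CPM in *Ncr1*+/+ replicates 1 to 5. *Ndufs1*, a core iron-sulfur subunit, had 74.3, 74.9, 68.2, 77.0 and 80.8 CPM in *Ncr1*gfp/gfp replicates 1 to 5 and 79.4, 85.3, 79.1, 82.9 and 81.3 CPM in *Ncr1*+/+ replicates 1 to 5. The values of *Ndufv1* were intermixed between genotypes, whereas 4 *Ncr1*gfp/gfp values of *Ndufs1* were below each *Ncr1*+/+ value and that of replicate 5 was not. The 95% interval of the fold change was 0.868 to 1.13 for *Ndufv1* and 0.833 to 1.02 for *Ndufs1* (adjusted p = 0.970 and 0.538).

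The widest differences of complex I were in accessory subunits, which surround the core and carry no cofactor of electron transfer. *Ndufa3*, an accessory subunit of the membrane arm and the most abundant complex I gene per kilobase, at 81.8, had 20.3, 29.4, 26.7, 21.3 and 25.0 CPM in *Ncr1*gfp/gfp replicates 1 to 5 and 25.4, 31.2, 37.1, 36.6 and 32.4 CPM in *Ncr1*+/+ replicates 1 to 5. All *Ncr1*gfp/gfp libraries but replicates 2 and 3 were below each *Ncr1*+/+ library, and *Ncr1*+/+ replicate 1 was the lowest of its genotype. The log2 fold change came to -0.41 with a standard error of 0.12 (adjusted p = 0.129 in edgeR's test; two-sided exact permutation test without adjustment, p = 0.0238, where the smallest possible is 0.00794). This permutation p was under 0.05 for 7 of the 73 subunit genes. The test was not run over all tested genes, so this count has no background share and is no result about the subunit genes. Besides *Ndufa3*, *Uqcrfs1* and *Ndufb11*, the 7 genes included *Ndufs1*, *Ndufs7* and *Cox6c* (exact permutation p = 0.0238 each). *Atp5h* was also among them (exact permutation p = 0.0397). *Ndufa3* lies at chr7:3568975-3571763 in the coordinates of the deposited table, whose build is not named, 0.720 Mb from the start of the targeted *Ncr1* gene, and the part of the altered locus or its flanks was not tested.

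*Ndufb11*, an accessory subunit at chrX:20192452-20194690, had the highest fold change, with 34.0, 37.5, 33.6, 28.4 and 34.7 CPM in *Ncr1*gfp/gfp replicates 1 to 5 and 28.5, 33.4, 28.3, 24.9 and 27.2 CPM in *Ncr1*+/+ replicates 1 to 5. The *Ncr1*gfp/gfp libraries were the higher ones apart from replicate 4, which was below *Ncr1*+/+ replicates 1 and 2. This gave a log2 fold change of 0.24 with a standard error of 0.11 (adjusted p = 0.369 in edgeR's test; exact permutation p = 0.0238). The gene overlaps *Rbm10* in the table, as 12 of the 73 genes overlap another gene, and the library kit does not mark strand, so reads of such neighbours cannot be told apart. *Ndufb2* had the second-lowest fold change, -0.39 on the log2 scale, with 7.05 to 10.2 CPM across *Ncr1*gfp/gfp libraries and 8.73 to 16.3 CPM across *Ncr1*+/+ libraries (adjusted p = 0.477). Its *Ncr1*+/+ replicate 1 was at 16.3 CPM while the other *Ncr1*+/+ libraries were at or below 10.5 CPM. *Ndufb7*, second in abundance per kilobase in complex I at 74.7, had 34.6 to 42.7 CPM across *Ncr1*gfp/gfp libraries and 39.2 to 46.1 CPM across *Ncr1*+/+ libraries, with a fold change whose 95% interval was 0.797 to 1.03.

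Complex II, succinate dehydrogenase, also works in the citric acid cycle. Its 4 genes had intervals within 0.7 to 1.5, with 3 higher, 1 lower and a median log2 fold change of 0.079. *Sdha*, the flavoprotein that oxidizes succinate, had 201, 209.5, 199, 213 and 217 CPM in *Ncr1*gfp/gfp replicates 1 to 5 and 193, 203, 219, 201 and 202 CPM in *Ncr1*+/+ replicates 1 to 5. *Sdhb*, its iron-sulfur partner, had 70.0, 56.1, 55.7, 57.5 and 52.5 CPM in *Ncr1*gfp/gfp replicates 1 to 5 and 56.97, 48.1, 47.5, 52.6 and 59.5 CPM in *Ncr1*+/+ replicates 1 to 5. For both genes the values overlapped, and for *Sdhb* *Ncr1*gfp/gfp replicate 1 was well above the others. The 95% interval of the fold change was 0.942 to 1.11 for *Sdha* and 0.965 to 1.26 for *Sdhb* (adjusted p = 0.914 and 0.630).

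Of the 2 membrane anchors that hold the site for coenzyme Q, *Sdhd* was the only complex II gene with a lower level in *Ncr1*gfp/gfp ILC1s, with 29.4 to 48.1 CPM across *Ncr1*gfp/gfp libraries and 39.5 to 45.9 CPM across *Ncr1*+/+ libraries. Its lowest value was in *Ncr1*gfp/gfp replicate 1, where *Sdhb* was highest, and the interval of its fold change was 0.789 to 1.08. *Sdhc*, the other anchor, had 53.7 to 65.98 CPM across *Ncr1*gfp/gfp libraries and 42.1 to 68.7 CPM across *Ncr1*+/+ libraries. The lowest *Ncr1*+/+ value of *Sdhc* was in replicate 1, and without *Ncr1*gfp/gfp replicate 3 and *Ncr1*+/+ replicate 1, the libraries with hepatocyte genes, the median log2 fold change of complex II was 0.020.

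Complex III passes electrons from reduced coenzyme Q to cytochrome c. Of its 9 genes 2 were higher and 7 lower, none passed the test, and all had intervals within 0.7 to 1.5. The catalytic subunits encoded in the nucleus are *Uqcrfs1*, the Rieske iron-sulfur protein, and *Cyc1*, cytochrome c1. *Uqcrfs1* (chr13:30632181-30637185) had 41.8, 44.6, 35.1, 37.3 and 46.7 CPM in *Ncr1*gfp/gfp replicates 1 to 5 and 46.9, 47.0, 44.1, 51.2 and 49.03 CPM in *Ncr1*+/+ replicates 1 to 5. Its *Ncr1*gfp/gfp values were the lower ones, except that replicates 2 and 5 were above the lowest *Ncr1*+/+ library. The log2 fold change of -0.21 (standard error 0.093) did not pass the adjustment (adjusted p = 0.356; exact permutation p = 0.0397). *Cyc1* had 44.0, 53.9, 46.7, 40.2 and 54.1 CPM in *Ncr1*gfp/gfp replicates 1 to 5 and 51.8, 50.7, 52.3, 49.4 and 56.4 CPM in *Ncr1*+/+ replicates 1 to 5, with intermixed values and a fold-change interval of 0.804 to 1.05.

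Among the other complex III genes, *Uqcrc1*, a core protein on the matrix side, had 73.0 to 92.8 CPM across *Ncr1*gfp/gfp libraries and 78.7 to 93.1 CPM across *Ncr1*+/+ libraries, and the interval of its fold change was 0.893 to 1.11. *Uqcrh*, the hinge protein near the docking site of cytochrome c and the most abundant complex III gene per kilobase at 92.2, had 45.2 to 59.3 CPM across *Ncr1*gfp/gfp libraries and 46.2 to 56.8 CPM across *Ncr1*+/+ libraries, with an interval of 0.857 to 1.12. *Uqcr11*, a small accessory subunit, had the highest fold change of the complex, 0.24 on the log2 scale, with 10.2 to 16.0 CPM across *Ncr1*gfp/gfp libraries and 9.08 to 13.4 CPM across *Ncr1*+/+ libraries (adjusted p = 0.655). At these lower levels the interval was wider, 0.931 to 1.49.

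**Figure D4:**
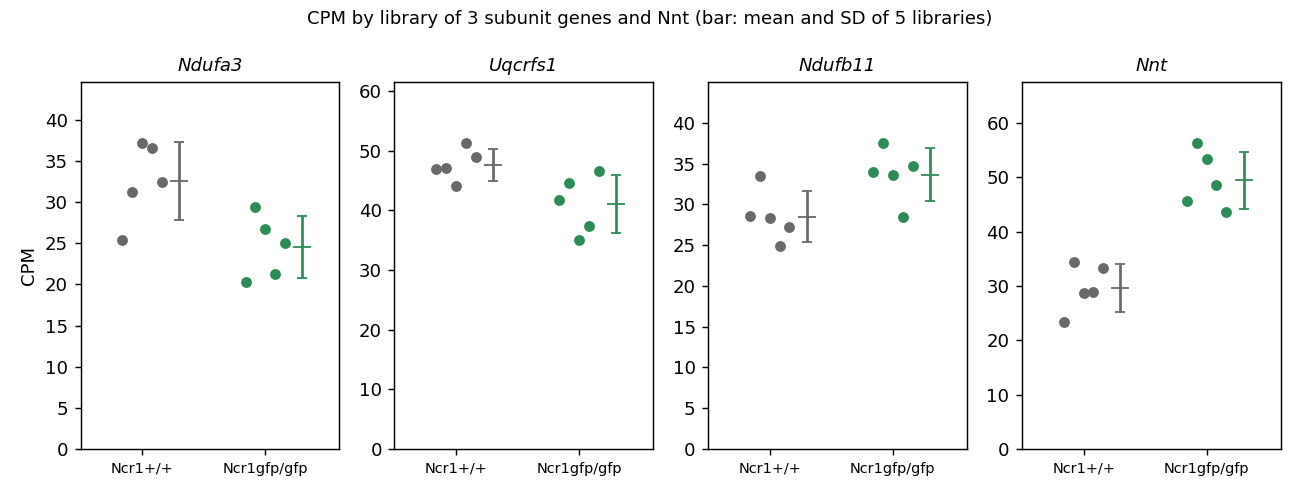
CPM of the 3 subunit genes with an unadjusted p under 0.05 and of *Nnt* in each library (points), by genotype, with the mean and SD of 5 libraries (bars) on axes that start at 0. The genotypes overlap for *Ndufa3*, *Uqcrfs1* and *Ndufb11* and are apart for *Nnt*.

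Complex IV, cytochrome c oxidase, reduces oxygen on subunits from mitochondrial DNA, and the 12 genes here encode the nuclear subunits around them and *Cox7a2l*. Of these, 4 were higher and 8 lower, with a median log2 fold change of -0.035, or -0.072 without *Ncr1*gfp/gfp replicate 2 and -0.015 without *Ncr1*gfp/gfp replicate 5. *Cox4i1*, the largest nuclear subunit, which joins early in assembly, had 133, 136, 128, 118 and 119.8 CPM in *Ncr1*gfp/gfp replicates 1 to 5 and 121, 128, 132, 139 and 131 CPM in *Ncr1*+/+ replicates 1 to 5. *Cox5a*, which joins at the same stage, had 40.9, 48.0, 52.6, 38.4 and 54.2 CPM in *Ncr1*gfp/gfp replicates 1 to 5 and 55.6, 46.3, 43.7, 50.2 and 44.6 CPM in *Ncr1*+/+ replicates 1 to 5. Both genes had intermixed values, and their fold-change intervals were 0.891 to 1.07 and 0.839 to 1.13 (adjusted p = 0.918 and 0.942).

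The extremes of complex IV were *Cox6a1* and *Cox6c*. *Cox6a1* had 46.3, 55.2, 51.6, 50.6 and 48.97 CPM in *Ncr1*gfp/gfp replicates 1 to 5 and 57.6, 45.1, 58.3, 62.3 and 63.2 CPM in *Ncr1*+/+ replicates 1 to 5, with *Ncr1*+/+ replicate 2 the lowest of all libraries and the other *Ncr1*+/+ libraries the highest. The fold change was -0.18 on the log2 scale, with a standard error of 0.093 (adjusted p = 0.486). *Cox6c* had 51.8, 52.7, 51.1, 45.3 and 49.3 CPM in *Ncr1*gfp/gfp replicates 1 to 5 and 45.5, 42.9, 47.9, 42.4 and 45.0 CPM in *Ncr1*+/+ replicates 1 to 5, and in this gene *Ncr1*gfp/gfp replicate 4 alone lay among the *Ncr1*+/+ values. On the log2 scale this was a fold change of 0.16 with a standard error of 0.080 (adjusted p = 0.464). *Cox6b1*, on the face towards cytochrome c and second in abundance in complex IV at 126 per kilobase, had 55.7 to 70.1 CPM across *Ncr1*gfp/gfp libraries and 54.7 to 68.6 CPM across *Ncr1*+/+ libraries, with an interval of 0.904 to 1.15. *Ndufa4* had 29.1 to 34.9 CPM across *Ncr1*gfp/gfp libraries and 29.9 to 40.3 CPM across *Ncr1*+/+ libraries and an interval of 0.762 to 1.03. *Cox7a2l* had 43.5 to 58.7 CPM across *Ncr1*gfp/gfp libraries and 49.1 to 58.5 CPM across *Ncr1*+/+ libraries and an interval of 0.838 to 1.08.

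Several complex IV subunits have a general isoform and others that are restricted to heart, muscle, lung, testis or low oxygen. In both genotypes the general isoform made up nearly all counts of each set. *Cox4i1* held 100% of the *Cox4i1* and *Cox4i2* counts in each library but 1, where *Cox4i2*, the lung and oxygen-responsive form, had its only count. *Cox6a1* held 98.7% to 99.9% against *Cox6a2*, *Cox6b1* held 98.9% to 100% against *Cox6b2*, and *Cox7a2* held 98.8% to 100% against *Cox7a1*, the heart and muscle form. *Ndufa4* held 99.1% to 100% against *Ndufa4l2*, a form known to rise in low oxygen. *Cox7b2*, *Cox8b* and *Cox8c* had 0 counts in all 10 libraries, so *Cox7b* and *Cox8a* were the only forms counted. *Cox7a2*, *Cox7b* and *Cox8a* did not pass the test, with fold-change intervals of 0.833 to 1.09, 0.872 to 1.15 and 0.765 to 1.09. The minor forms had too few counts for a fold change.

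The ATP synthase is a rotary enzyme with a catalytic head (F1), a ring of c subunits in the membrane and a peripheral stalk between them. Of its 14 genes 6 were higher and 8 lower, with a median log2 fold change of -0.016. *Atp5a1*, the alpha subunit of the head, had 409, 451, 407, 405 and 380.5 CPM in *Ncr1*gfp/gfp replicates 1 to 5 and 409.7, 424, 390.5, 427 and 414 CPM in *Ncr1*+/+ replicates 1 to 5. *Atp5b*, the beta subunit with the catalytic sites, had 395, 451, 409, 361 and 348 CPM in *Ncr1*gfp/gfp replicates 1 to 5 and 420.3, 403, 385, 421 and 400.0 CPM in *Ncr1*+/+ replicates 1 to 5. Both were highest in *Ncr1*gfp/gfp replicate 2 and lowest in *Ncr1*gfp/gfp replicate 5, so the *Ncr1*gfp/gfp libraries bracketed all *Ncr1*+/+ libraries. As the most deeply counted members they had some of the narrowest intervals, 0.922 to 1.07 for *Atp5a1* and 0.884 to 1.06 for *Atp5b* (adjusted p = 0.973 and 0.852).

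The 4 stalk genes had intervals within 0.7 to 1.5, as did the 5 genes of the head. In the membrane part, *Atp5k* (subunit e, which takes part in joining ATP synthases as dimers) had the lowest fold change, -0.24 on the log2 scale, with 4.52 to 6.60 CPM across *Ncr1*gfp/gfp libraries and 5.00 to 8.30 CPM across *Ncr1*+/+ libraries. *Atp5j2* (subunit f) had the highest, 0.15, with 12.4 to 22.8 CPM across *Ncr1*gfp/gfp libraries and 13.7 to 19.4 CPM across *Ncr1*+/+ libraries. It was 0.029 without *Ncr1*gfp/gfp replicate 2 and 0.25 without *Ncr1*gfp/gfp replicate 4. The adjusted p was 0.760 for *Atp5k* and 0.813 for *Atp5j2*, and the intervals of the fold change were 0.620 to 1.15 and 0.887 to 1.38. The c subunit comes from 3 genes whose mature proteins are the same. *Atp5g3* held 94.5% to 98.6% of their counts per library, *Atp5g1* 1.37% to 3.69% and *Atp5g2* 0% to 1.83%. *Atp5g3* had 63.6 to 77.5 CPM across *Ncr1*gfp/gfp libraries and 66.4 to 76.7 CPM across *Ncr1*+/+ libraries and a fold-change interval of 0.879 to 1.10, while *Atp5g1*, with 334 counts in all, had an interval of 0.482 to 1.79 that covers changes in either direction.

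The 11 matching genes under the count limit were *Ndufs5*, *Cox4i2*, *Cox6a2*, *Cox6b2*, *Cox7a1*, *Cox7b2*, *Cox8b*, *Cox8c*, *Ndufa4l2*, *Atp5g2* and *Atp5l*. The limit fell between *Atp5g2* and *Atp5l*, with 98 counts each, and *Cox7c*, the lowest member, with 294. Most are tissue forms, but *Ndufs5* and *Atp5l* encode subunits of complex I and the ATP synthase and are not tissue forms. *Ndufs5* had 0 counts in all 10 libraries, and 3 counts would be 0.132 to 0.190 CPM. *Cox7c*, a subunit with no tissue form, was likewise at 0.785 to 2.88 CPM, against 14.5 to 139 CPM for the other complex IV members. HTSeq at its default does not count a read with several mapped positions. RefSeq (GRCm38.p6) lists pseudogenes named after 8 of the 84 genes, *Ndufs5*, *Atp5l* and *Cox7c* among them, but also after the well-counted *Uqcrh* and *Atp5c1*. Whether multiple mapping lowered these counts was not tested, and the levels of the 3 genes are uncertain.

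Precision followed the level, taken here as the mean CPM over the *Ncr1*+/+ libraries. The standard error of the log2 fold change had a median of 0.219 for the 6 genes under 10 CPM, 0.117 for 44 genes at 10 to 50 CPM and 0.079 for 23 genes at or above 50 CPM. Across the 73 genes, which share the 10 libraries and are not replicates, Spearman's rho was -0.94 between this mean CPM and standard error. Between exon length and log2 fold change it was 0.04. The genes lay on 19 chromosomes, 4 of them on chromosome 7.

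Genes that build or serve the chain were taken from lists. Of 15 tested assembly factors of complex I, 4 of complex II, 6 of complex III, 25 of complex IV and 6 genes for assembly, dimers or inhibition of the ATP synthase, none had an adjusted p under 0.05. Their median log2 fold changes were 0.033, -0.17, 0.12, 0.058 and 0.051. Within the last list *Tmem70*, an assembly factor of the ATP synthase named here after its values were seen, had 25.5, 21.3, 20.3, 19.6 and 21.1 CPM in *Ncr1*gfp/gfp replicates 1 to 5 and 17.9, 15.1, 16.2, 16.1 and 19.2 CPM in *Ncr1*+/+ replicates 1 to 5. No *Ncr1*gfp/gfp library of *Tmem70* was as low as any *Ncr1*+/+ library, yet its log2 fold change of 0.35 did not pass the adjustment (adjusted p = 0.198). Of 18 tested genes listed as regulators of respiratory genes, 13 were higher and 5 lower, and none passed. This list also holds *Polg*, *Twnk* and *Polrmt*, whose proteins copy, unwind or transcribe mitochondrial DNA. The lowest adjusted p in that list, 0.0902, belonged to *Myc*, chosen for that value, with 71.1 ± 6.53 CPM over the 5 *Ncr1*gfp/gfp libraries and 87.8 ± 10.4 CPM over the 5 *Ncr1*+/+ libraries (mean ± SD).

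Among 27 tested genes for cytochrome c, coenzyme Q enzymes, carriers and other inner membrane proteins, *Nnt* alone passed. It encodes the transhydrogenase that uses the proton gradient to make NADPH, and the C57BL/6J substrain is known to carry a deletion within it. *Nnt*, at chr13:120123124-120198064 in the table, had 45.5, 56.2, 53.3, 48.5 and 43.6 CPM in *Ncr1*gfp/gfp replicates 1 to 5 and 23.3, 34.4, 28.6, 28.8 and 33.3 CPM in *Ncr1*+/+ replicates 1 to 5. Every *Ncr1*gfp/gfp library was above every *Ncr1*+/+ library, which gave a log2 fold change of 0.74 with a standard error of 0.11 (adjusted p = 0.000858; exact permutation p = 0.00794), and it was called. Counts per gene do not show which exons the reads fell on, and the part of the genetic background in this difference was not tested. *Gpd2*, a dehydrogenase that feeds electrons to coenzyme Q, also had no overlap and was picked for that, with 112 ± 6.79 CPM over the 5 *Ncr1*gfp/gfp libraries and 97.0 ± 4.98 CPM over the 5 *Ncr1*+/+ libraries (mean ± SD). Its adjusted p was 0.140 in edgeR's test.

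As a comparison, 81 tested cytosolic ribosomal protein genes had a median log2 fold change of -0.043 with 1 higher gene at an adjusted p under 0.05, and 77 tested mitochondrial ribosomal protein genes had a median of -0.00078 with none. The corresponding median absolute log2 fold change was 0.096 and 0.098, against 0.085 for the subunit genes and 0.105 over all tested genes.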

How the data were processed

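RNA-seq of sorted liver ILC1s was analysed in 5 Ncr1gfp/gfp and 5 Ncr1+/+ libraries, grouped by the genotype in their labels. By the study's methods, the authors trimmed single reads and mapped them with STAR, and the deposited values are whole read counts per gene from HTSeq at default settings, not normalized, with gene coordinates and exon lengths. The methods name mm10, but the coordinates differ from that build and are given as listed. Of 24564 genes, edgeR 4.0.16 (filterByExpr) kept 11463. They were normalized by TMM and tested with the quasi-likelihood test in R 4.3.3, with Benjamini-Hochberg adjustment. Single genes were also tested by two-sided exact permutation of CPM (SciPy 1.17.1). CPM was divided by exon length for levels between genes. On counts simulated for this comparison with 11463 genes, the fit was tested before use. Alternatives were DESeq2 1.42.0, limma 3.58.1 (voom), other size factors and filters, a replicate block and leaving out libraries.

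The members, lists and complexes were chosen with earlier results of these data known. Genes named were those with an adjusted p under 0.05, the highest and lowest fold change and the 2 highest levels per kilobase of each complex, catalytic or core subunits and isoform sets. Others are said to be picked by value. No pair of libraries of 1 genotype agreed within sampling noise (chi-square per gene 9.18 to 24.0 over 20 pairs). All 84 names matched RefSeq. Intervals and floors cover counting error and the spread between libraries only.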

Additional observations from a re-analysis of the deposited data

Results flagged for a closer look

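Of 74 groups of 5 libraries examined, 3 held 1 library whose gap to the nearest other library was past Dixon's 95% critical share of the range of the group, where chance alone would give 3.7. The mean log2 CPM of the complex I genes was 4.66 in *Ncr1*+/+ replicate 2, under the next value of 4.72. That of the complex III genes was 5.30 in *Ncr1*gfp/gfp replicate 2, above the next value of 5.08. *Sdhb* was at 70.0 CPM in *Ncr1*gfp/gfp replicate 1, above the next value of 57.5 CPM.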

How the results depend on the processing

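No subunit gene had an adjusted p under 0.05 in edgeR, DESeq2 or limma-voom, with other size factors or filters, or without any 1 library. The lowest adjusted p of a member, 0.054 in limma-voom and 0.062 to 0.314 in the edgeR fits without 1 library, belonged to *Ndufa3* except without *Ncr1*gfp/gfp replicate 4, where it was 0.263 for *Ndufb11*. Members at an unadjusted p under 0.05 numbered 1 to 5 of 73 in the fits without 1 library, against 9.33% to 11.9% of all tested genes. Libraries of the same replicate number had deviations from their genotype means that correlated at -0.017 to 0.044. This cannot tell whether they were handled in pairs, which the labels do not say. With a replicate block 0 members were called, against 87 of all tested genes. Without both libraries with hepatocyte genes, an alternative chosen after seeing the data, the median log2 fold change of complex II moved from 0.079 to 0.020 and 0 members were called. Without 1 library, the median was -0.043 to 0.014 for complex I, positive without *Ncr1*gfp/gfp replicate 4 (0.014) or *Ncr1*+/+ replicate 4 (0.0030) or 5 (0.0077), and -0.042 to 0.031 for the ATP synthase, positive without *Ncr1*gfp/gfp replicate 5 (0.0050) or *Ncr1*+/+ replicate 3 (0.031) or 5 (0.0030), so neither has a settled direction. It was 0.030 to 0.091 for complex II, -0.101 (without *Ncr1*gfp/gfp replicate 2) to -0.022 for complex III and -0.072 to -0.015 for complex IV. Of the 73 members, 31 changed sign in at least 1 alternative, each with a log2 fold change within 0.16 of 0. The largest of these was 0.16, for *Cox7c*. Among the genes chosen for naming by the rule given above, 9 changed sign. For these 9, log2 fold changes without 1 library were -0.035 to 0.048 for *Uqcrc1*, -0.046 to 0.051 for *Cox7b*, -0.094 to 0.027 for *Cox5a*, -0.019 to 0.077 for *Cox6b1*, -0.069 to 0.0085 for *Atp5g3*, -0.101 to 0.013 for *Uqcrh*, -0.059 to 0.027 for *Ndufv1*, -0.044 to 0.017 for *Atp5a1* and -0.31 to 0.13 for *Atp5g1*. Other settings turned *Uqcrc1* to 0.00016 (RLE size factors) and 0.00028 (DESeq2), *Cox7b* to -0.00023 (upper-quartile factors), -0.00052 (no filter), -0.00068 (at least 10 counts in every library), -0.0041 (replicate block) and -0.042 (limma-voom), and in limma-voom *Cox5a* to 0.023 and *Cox6b1* to -0.0071. The cause was not tested. *Nnt* kept its direction and its adjusted p under 0.05 in each of these fits. Depth limits the 6 members under 10 CPM in *Ncr1*+/+ ILC1s most.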
